A study of Mus musculus with 8 samples.

Results

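The CELF and ELAV genes encode RNA-binding proteins with RNA recognition motifs. The 9 genes described here are Celf1, Celf2, Celf4, Celf5, Celf6, Elavl1, Elavl2, Elavl3 and Elavl4, and the question was where CLIP peaks of RBM45 fell on their RNA. Members were the distinct peak intervals of 2 wild-type CLIP libraries whose midpoint lay in the same-strand body of these genes (mm10, GENCODE M21). There were 700 such intervals of 731580 in all, 462 of 387749 peaks in replicate 1 and 239 of 344700 in replicate 2, with 1 interval identical in both. The 9 genes were 9 of 15995 genes that held peaks in both replicates.

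CELF proteins bind GU-rich RNA and act on alternative splicing in the nucleus and on the decay and translation of mRNA in the cytoplasm. ELAV proteins, also called Hu proteins, bind U- and AU-rich RNA, mostly in introns and 3' UTRs, and stabilise mRNA or change its splicing. Celf1, Celf2 and Elavl1 are expressed in many tissues, whereas Celf4, Celf5, Celf6, Elavl3 and Elavl4 are mainly neuronal and Elavl2 is made in neurons and the gonads. RBM45 is itself an RNA-binding protein that was first described as a developmentally regulated, ELAV-like protein of the nervous system, and it binds GAC-containing RNA.

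The libraries came from mHippoE-2 cells, a transformed line of mouse hippocampal neurons of strain Crl:CFW(SW)-024 with genotype WT, transduced with lentivirus for FLAG-HA-tagged mouse RBM45. RNA crosslinked to the tagged protein was recovered with an antibody against HA and made into iCLIP libraries, a protocol that gives short cDNAs from the protein's binding sites. The series holds 2 libraries in each of 4 groups, and the size-matched inputs and the Mettl3 knockout (an m6A methyltransferase mutant) libraries are not used here. Since the antibody was against the HA tag, the peaks describe introduced RBM45, and nothing in the labels says that the 2 libraries came from separate cultures.

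Each deposited peak carries the authors' fold, which is the pileup over the local background level, and a −log10 p, which was at least 2.30. Both values were met by a whole number of fragments at the summit, called the height here, for 99.998% of replicate 1 peaks and 99.997% of replicate 2 peaks. The fold then equals (height + 1) / (background + 1), so a peak of height 1 has 1 fragment at its summit and its fold lies between 1.81 and 1.95. Peaks of height 1 are called single fragments below, although some are wider than 30 bases and can hold further fragments beside the summit. A peak of height 1 passed only where the background level was at most 0.103 fragments in either replicate. A peak of height 2 passed up to 0.335 and 0.338, and a peak of height 3 up to 0.665 and 0.669. Peaks per kb are therefore counts of passing positions and not a level of binding or of RNA. RNA abundance was not measured in the files used here, so more binding and more RNA cannot be told apart.

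The sequences below are from peaks named in the results that an annotated transcript covers, since no genome sequence was used. They are written 5′ to 3′ on the gene's strand from GENCODE M21 transcripts (mm10). Capitals mark GAC and 5 U-rich strings, written with T for U: the run TTTTT, the GU-rich strings TGTTT and, in the other order, TTTGT, the GU repeat TGTGT, and the AU-rich string TATTTA.
Celf2 intron 2, the whole 269-base replicate 1 peak of the densest shared run, chr2:7078623-7078891, minus strand: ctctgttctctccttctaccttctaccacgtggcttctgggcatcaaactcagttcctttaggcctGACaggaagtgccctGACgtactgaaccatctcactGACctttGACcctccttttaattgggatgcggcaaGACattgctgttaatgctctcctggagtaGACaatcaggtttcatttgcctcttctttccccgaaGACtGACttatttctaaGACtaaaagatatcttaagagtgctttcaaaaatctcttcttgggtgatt
Celf2 intron 8, both peaks of an overlapping pair, chr2:6604990-6605043, minus strand: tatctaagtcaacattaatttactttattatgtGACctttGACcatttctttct
Celf1 3' UTR, centre of the shared peak, chr2:91015428-91015457, plus strand: actttctgtGACcgtttgcagcccaggtaa
Celf1 3' UTR, centre of an unshared replicate 1 peak, chr2:91018684-91018713, plus strand: attccaagaggagctctgggaaaacctgtg
Celf1 3' UTR, another unshared replicate 1 peak, chr2:91018903-91018932, plus strand: TGTGTgagTTTTTTattggtacaaacgttg
Celf2 3' UTR, centre of an unshared replicate 1 peak, chr2:6545631-6545660, minus strand: ttagtcatcgtttgcctagcatgtccctgt
Elavl1 3' UTR, centre of the highest replicate 1 peak, chr8:4289324-4289353, minus strand: tcttaagttatttcctttaaagtatatatt
Elavl1 3' UTR, centre of the other replicate 1 peak, chr8:4285519-4285548, minus strand: actagatggctaGACaTTTTTGTatattag
Elavl1 coding sequence, replicate 1 peak, chr8:4311753-4311782, minus strand: ttaaataatacaatgtctaatggttatgaa
Elavl1 intron 1, replicate 2 peak, chr8:4312240-4312313, minus strand: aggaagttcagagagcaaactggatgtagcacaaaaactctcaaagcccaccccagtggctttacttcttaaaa
Elavl1 intron 1, neighbouring replicate 2 peak, chr8:4312409-4312438, minus strand: atgccatGACcagaaacaactaacaaaaga
Elavl2 5' UTR, replicate 1 peak, chr4:91376096-91376125, minus strand: tcatcatttcttttagcattgGACtttggg
Elavl2 5' UTR, centre of the replicate 2 peak, chr4:91376050-91376079, minus strand: tttatttgcttcttttaagccgagcacagt
The 269 bases of Celf2 hold GAC 9 times and none of the other 5 strings. That is 33.7 GAC per kb of searched positions, beside 13.4 and 13.3 in the central 30 bases of all readable peaks of replicates 1 and 2. The 54 bases of Celf2 intron 8 hold GAC 2 times, and the shared Celf1 peak holds it 1 time. The 5 Elavl1 stretches hold GAC 2 times in all, and 1 of them, in the 3' UTR, also holds a run of U. Of the 5 unshared 3' UTR stretches read in Celf1 and Celf2, 3 of them printed, 0 hold GAC. In all, 16 stretches were read, and 6 of them hold GAC. They were chosen for their peaks and for being readable, so the comparison is a description.

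Shared peaks, those that stood in the authors' list of replicate 2 peaks overlapped by a replicate 1 peak over at least 50% of their width, were found in 4 of the 9 genes. Over all genes with peaks in both replicates, 38.7% held a shared peak. The 4 genes were Celf1, Celf2, Celf4 and Celf6, and none of the 4 ELAV genes held a shared peak. Of the 20 shared peaks, 17 lay in Celf2, which also makes up 55.3% of the 1754 kb covered by the 9 genes. The other 3 were 1 each in Celf1, Celf4 and Celf6.

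Replicate 1 gave 30 peaks in Celf1, 366 in Celf2, 25 in Celf4, 2 in Celf5 and 2 in Celf6. Replicate 2 gave 14, 157, 24, 6 and 4 in the same genes. In Elavl1, Elavl2, Elavl3 and Elavl4, replicate 1 gave 6, 20, 5 and 6 peaks and replicate 2 gave 5, 21, 1 and 7. Celf2 thus held 79.2% of the replicate 1 peaks and 65.7% of the replicate 2 peaks. The members' peaks numbered 1.93 times as many in replicate 1 as in replicate 2, beside 1.12 times for all peaks, and of the difference of 223 peaks Celf2 gave 209 (2.33 times) and Celf1 16 (2.14 times). In the other 7 genes the difference ran from -4 to 4, the highest being Elavl3 with 5 and 1 peaks.

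Per kb of gene body, Celf1 held 0.379 peaks in replicate 1 and 0.177 in replicate 2, and Celf2 held 0.377 and 0.162. The lowest values were those of Elavl4, at 0.0405 and 0.0472. The median over the 9 genes was 0.133 in replicate 1 and 0.136 in replicate 2, beside 0.466 and 0.375 over all genes with peaks in both replicates. Peaks per kb fall with gene length, so each gene was also set beside genes within 1.5 times its length. Among 120 genes as long as Celf2 the median was 0.0543 and 0.0536, and Celf2 stood above 85.8% of them in replicate 1 and 71.7% in replicate 2. Each of the other 8 genes lay below the median of its like-length genes in both replicates, Celf1 by the least in replicate 1 (0.379 against 0.384).

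Celf1, Celf2 and Elavl1 had fewer single-fragment peaks than the background of all genes in both replicates. Over all peaks in genes, 76.6% in replicate 1 and 69.5% in replicate 2 were single fragments. Elavl1 had no peak of height 1 among 6 and 5, and Celf1 had 7 of 30 in replicate 1 and 0 of 14 in replicate 2. Celf2 had 213 of 366 (58.2%, Wilson 95% interval 53.1 to 63.1) and 63 of 157 (40.1%, 32.8 to 47.9). In Celf5, Celf6, Elavl2, Elavl3 and Elavl4 between 75% and 100% of the peaks had height 1 in each replicate, and Celf4 had 68.0% (48.4 to 82.8) and 91.7% (74.2 to 97.7). The interval of Celf4 thus holds the share of Celf2 in replicate 1 but not in replicate 2. These intervals cover counting error only.

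The local background at the peaks differed between the genes as well. It is known only where a peak passed, so its median is not independent of the heights. Its median at the peaks was 0.164 and 0.292 fragments in Celf1, 0.0887 and 0.163 in Celf2 and 0.235 and 0.252 in Elavl1. In Celf5, Celf6, Elavl2, Elavl3 and Elavl4 the median was at the lowest level of the library, 0.0246 in replicate 1 and 0.0404 in replicate 2. Celf4 lay at 0.0555 and at that lowest level of 0.0404. At the lowest level a lone fragment passes as a peak, whereas at the median background of Elavl1 it cannot. A count of peaks in these 5 genes and a count in Elavl1 therefore do not mean the same number of fragments.

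**Figure D1:**
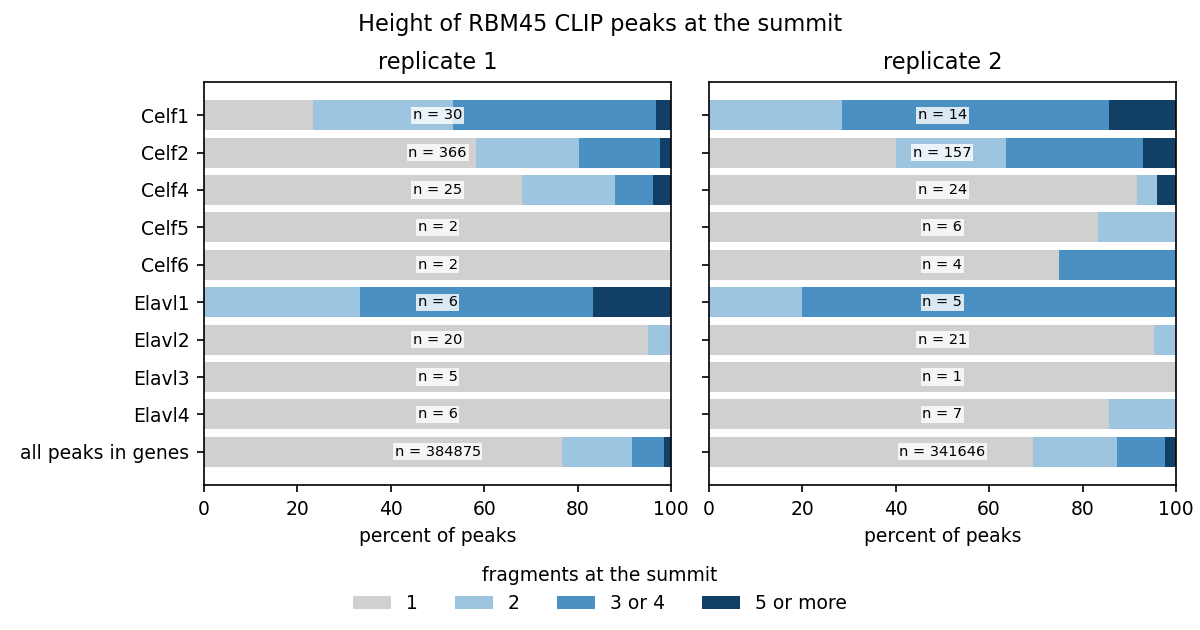
Share of peaks (horizontal axis, percent) by height at the summit for each gene and for all peaks in genes, replicate 1 on the left and replicate 2 on the right, with the number of peaks on each bar. Grey is a single fragment, which makes up none of the Elavl1 peaks and all 5 and 1 of the Elavl3 peaks.

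Celf2 (ENSMUSG00000002107.18, chromosome 2, 6539694 to 7509563, minus strand) encodes a splicing and mRNA decay factor expressed in brain, muscle and lymphoid cells. All 17 of its shared peaks were intronic. Among the 120 genes of like length the median was 2 shared peaks, and 12 genes, Celf2 included, had 17 or more. Of the 157 replicate 2 peaks in Celf2, 24 (15.3%, 10.5 to 21.7) overlapped a replicate 1 peak by at least 1 bp, beside 7.87% of all replicate 2 peaks in genes. Of the 366 replicate 1 peaks, 22 (6.01%, 4.0 to 8.93) overlapped a replicate 2 peak, beside 6.95%.

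The strongest shared peak of Celf2 lay in intron 3 of 15 of transcript Celf2-201. Replicate 1 placed it at 6948892 to 6948990 with a fold of 9.86 and a height of 10 fragments. Replicate 2 placed it at 6948892 to 6948978 with a fold of 9.09 and a height of 10. On the minus strand 6948892 is the 3′ end of the peak, and it was the same base in both replicates. The 5′ ends differed, at 6948990 and 6948978, and the background levels were 0.115 and 0.210. The peak lay 13444 nt from the nearest splice site of that transcript. In 9 of the 17 shared peaks of Celf2 both heights were at least 3, and the lower of the paired folds ran from 1.82 to 9.09 with a median of 2.70. The 17 are replicate 2 peaks, and 3 of the 9 pair with the same replicate 1 peak, whose height counts for each of them.

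The printed 269 bases are the widest Celf2 peak, with a fold of 6.38 and a height of 6 in replicate 1. Only 190 of all replicate 1 peaks (0.0490%) were at least as wide. In all, 3 separate replicate 2 peaks fell on it, and each is in the shared list. Counted from the 5′ end they covered bases 1 to 43 (fold 2.63, height 3), 92 to 121 (fold 3.44, height 3) and 186 to 239 (fold 4.76, height 5). Another shared peak lay just upstream, at 7079018 to 7079067 in replicate 2, with folds of 2.70 and 3.29. The 5′ end of the 269 bases lies 2.32 to 2.41 kb downstream of the annotated starts of Celf2-226, Celf2-221 and 1 more transcript, which lie 428.3 to 428.4 kb from the start of the gene.

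Celf2 peaks were spread unevenly along the gene. Annotated transcripts of the basic set start at 113.6 kb, 428.3 to 428.4 kb, 624.6 kb and 787.6 to 788.0 kb from the gene's first base. The stretch before 428.3 kb is 44.2% of the gene and held 17 of 366 replicate 1 peaks (4.64%) and 17 of 157 replicate 2 peaks (10.8%), with no shared peak. That is 0.0397 peaks per kb in each replicate, and 15 and 16 of the 17 were single fragments at a median background equal to the lowest of the library. From 428.3 to 624.6 kb there were 148 and 89 peaks, 0.754 and 0.453 per kb, of which 9 replicate 2 peaks were shared.

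Between 624.6 and 787.6 kb Celf2 held 68 and 23 peaks, 0.417 and 0.141 per kb, and the median background was 0.270 and 0.327. Here 8 of 68 and 0 of 23 peaks had height 1, and the median folds were 2.74 and 3.29. A single fragment does not pass at those median backgrounds. These heights and folds are therefore not directly comparable with those of stretches with a lower background. From 787.6 kb to the end there were 133 replicate 1 peaks but 28 replicate 2 peaks. In that stretch 84 of the 133 replicate 1 peaks were single fragments at a median background of 0.0915, and 2 of the 28 replicate 2 peaks were, at 0.253, a level at which a single fragment does not pass. Each of the latter stretches held 4 shared peaks. The boundaries come from the annotation, but the split was chosen after the values were seen.

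**Figure D2:**
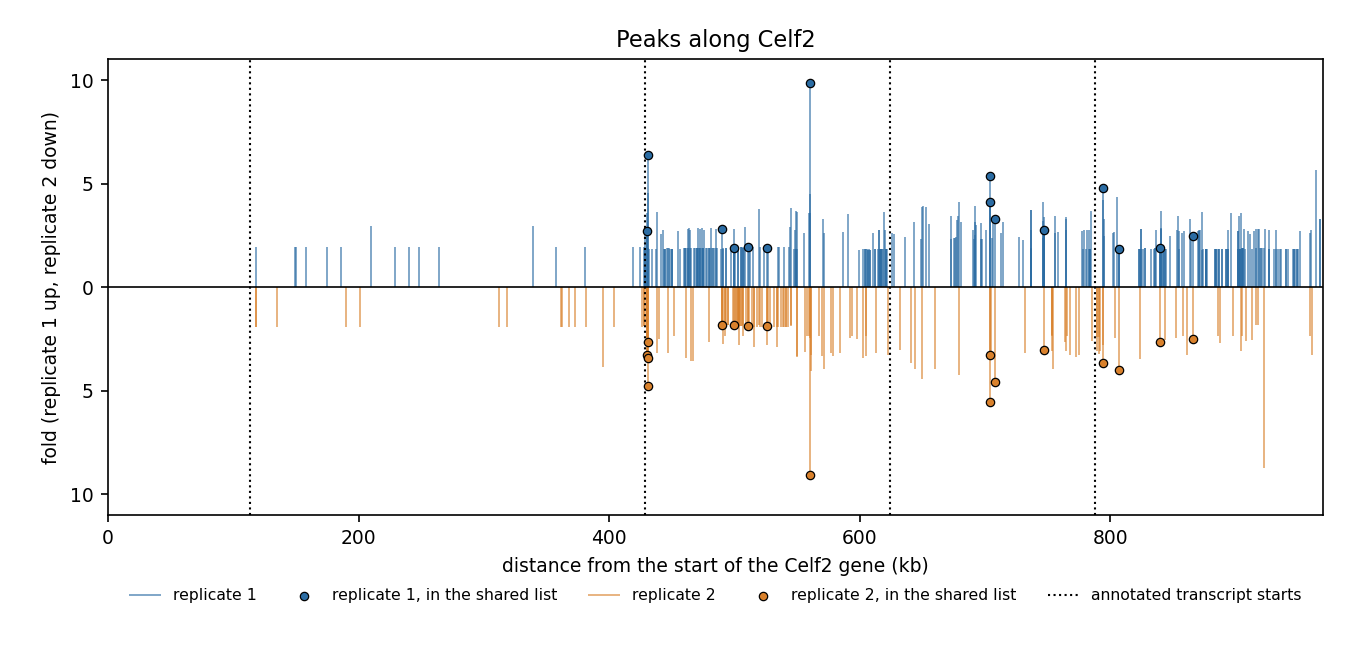
Fold of each Celf2 peak (vertical axis, replicate 1 upward and replicate 2 downward) against distance from the start of the gene in kb. Dots mark the peaks of the shared list and dotted lines the annotated transcript starts. Shared peaks begin at the second dotted line, 428.3 kb, and the tallest in both directions (9.86 and 9.09) lies at 560.6 kb.

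By intron of Celf2-201, the 17 shared peaks fell 8 in intron 2, 5 in intron 3, 3 in intron 4 and 1 in intron 5. Intron 1, 210 kb long, held 11 and 7 peaks (0.0523 and 0.0333 per kb) and none shared. Intron 2, of 223 kb, held 108 and 76, and intron 3, of 241 kb, held 114 and 46. Intron 8, of only 3.70 kb, held 12 replicate 1 peaks (3.24 per kb) and 2 replicate 2 peaks, among them the printed pair with folds of 3.56 and 3.087 and a height of 3 in each. That pair overlaps by 10 bp and is not in the authors' shared list.

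Some high peaks of Celf2 were seen in 1 replicate only. They were named after their values were seen. In replicate 2, an intron 10 peak at 6586562 to 6586591 had a fold of 8.73 and a height of 10, with no overlapping replicate 1 peak. In replicate 1, a 3' UTR peak at 6545610 to 6545681 had a fold of 5.64 and a height of 6, with no overlapping replicate 2 peak. Outside introns Celf2 held 6 replicate 1 peaks, 3 in the 3' UTR and 3 in coding sequence, and 1 replicate 2 peak in coding sequence.

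Celf1 (ENSMUSG00000005506.16, chromosome 2, 90940382 to 91019497, plus strand), the founding member of the family and a factor in mRNA decay and splicing, held 1 shared peak. By the basic gene set it was the only shared peak of the 9 genes outside an intron, and it lay in the 3' UTR. Replicate 1 gave 91015418 to 91015466 with a fold of 4.52 and a height of 5. Replicate 2 gave 91015420 to 91015472 with a fold of 3.23 and a height of 4, at a background of 0.549. The median fold of all Celf1 peaks was 2.74 and 3.17, above the medians of 1.93 and 1.92 of all peaks in genes, and the highest were 4.52 and 4.25. At the median background of Celf1, 0.164 and 0.292, no single fragment passes, but that background is known only at peaks that passed. How far the median fold depends on it was not tested.

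Most other Celf1 peaks lay in intron 1, which is 81.3% of its intron length and held 19 of 30 and 12 of 14 peaks, none of them overlapping between replicates. Over all genes 7.87% of replicate 2 peaks overlapped. Replicate 1 also had 2 unshared 3' UTR peaks, at 91018681 to 91018716 with a fold of 3.87 and at 91018903 to 91018932 with a fold of 4.0, and 1 peak in coding sequence. A single shared peak is the median of genes of its length, of which 53.3% held at least 1.

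Celf6 (ENSMUSG00000032297.11, chromosome 9, 59577917 to 59607292, plus strand), a splicing activator expressed in brain, held 2 and 4 peaks. Its shared peak lay in intron 3 of 12, at 59593983 to 59594012 in replicate 1 and 59593984 to 59594015 in replicate 2. The fold was 1.95 with a height of 1 in replicate 1 and 3.84 with a height of 3 in replicate 2, so it rests on 1 fragment in replicate 1. Celf5 (ENSMUSG00000034818.16, chromosome 10, 81459227 to 81482709, minus strand), a brain-expressed paralog, held 2 and 6 peaks. None overlapped (0 of 6 in replicate 2, upper bound 39.0%), which does not separate Celf5 from the 7.87% of all replicate 2 peaks. All but 1 of these 8 peaks were single fragments, and the other, in intron 1 of replicate 2, had a height of 2 and a fold of 2.88.

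Celf4 (ENSMUSG00000024268.16, chromosome 18, 25477632 to 25754157, minus strand), a neuronal translation and mRNA stability factor, held the only peak of the 9 genes with a fold of at least 10. The share of all genes with such a peak in either replicate was 2.98%, and by peak it was 0.137% in replicate 1 and 0.0948% in replicate 2. The peak lay in intron 2 of 12, at 25662209 to 25662239, and its interval was identical in both replicates. Its fold was 7.78 with a height of 7 in replicate 1 and 12.7 with a height of 15 in replicate 2. The background was 0.0277 in replicate 1 and 0.259 in replicate 2. No other Celf4 peak of replicate 2 had a height above 2.

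The rest of Celf4 differed between replicates by region. In replicate 1, 11 of 25 peaks lay in the 3' UTR, packed into the last 2.05 kb of the gene, with folds up to 3.79. In replicate 2, 0 of 24 peaks lay there, and all 24 were intronic. The peaks per kb were nonetheless close, at 0.0904 and 0.0868. With 1 library of each kind, the difference between the replicates was not tested.

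Elavl1 (ENSMUSG00000040028.10, chromosome 8, 4285382 to 4325413, minus strand) encodes HuR, the ubiquitous ELAV protein that stabilises AU-rich mRNAs. It had the highest median fold of the 9 genes, 3.04 in replicate 1 and 3.22 in replicate 2, and no shared peak. Single fragments, which have the lowest folds, do not pass at its median background of 0.235 and 0.252. That background is known only at peaks that passed, so it is not independent of their heights. Whether background shapes the ranking of median folds was not tested. The highest replicate 1 peak was in the 3' UTR at 4289324 to 4289353, with a fold of 4.10 and a height of 5. The highest replicate 2 peak was in intron 1 at 4315657 to 4315691, with a fold of 3.99 and a height of 4. The replicates did not fall in the same places. Replicate 1 had 2 peaks in the 3' UTR, 1 in coding sequence and 3 in introns, whereas all 5 replicate 2 peaks lay in intron 1.

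Of 3894 genes of the length of Elavl1, 41.5% held a shared peak. With 6 and 5 peaks in 40.0 kb, 0 of 5 replicate 2 peaks overlapping (Wilson upper bound 43.4%) does not separate Elavl1 from the 7.87% of all replicate 2 peaks. The count is too small to show a difference.

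Elavl2 (ENSMUSG00000008489.18, chromosome 4, 91250763 to 91400785, minus strand), which encodes HuB, held 20 and 21 peaks, of which 19 and 20 were single fragments. None overlapped between replicates (0 of 21, upper bound 15.5%), which does not separate Elavl2 from the 7.87% of all replicate 2 peaks in genes. The nearest approach named here, chosen after the values were seen, was in a 5' UTR exon of 1 of its transcripts. Replicate 1 had a peak of height 1 at 91376096 to 91376125 and replicate 2 had a peak of height 2 at 91376049 to 91376081, 14 nt apart. Intron 2 of Elavl2, 90.6 kb long, held 10 and 16 of the peaks.

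Elavl3 (ENSMUSG00000003410.8, chromosome 9, 22015005 to 22052023, minus strand), which encodes HuC, held 5 and 1 peaks, all single fragments, 3 of the 5 in the 3' UTR. Of these, 1 in each replicate also lay in the same-strand gene Gm49318. Elavl4 (ENSMUSG00000028546.17, chromosome 4, 110203722 to 110351909, minus strand), which encodes HuD, held 6 and 7 peaks, all intronic, with 1 peak above height 1 (fold 2.88, replicate 2). Neither gene had an overlapping pair. Over the 4 ELAV genes 0 of 34 replicate 2 peaks overlapped (upper bound 10.2%), which does not separate them from the 7.87% of all replicate 2 peaks. Elavl3 and Elavl4 stood above 27.3% and 11.8% of genes of like length in replicate 1 peaks per kb, and above 3.26% and 15.8% in replicate 2.

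Sharing followed height. Of the members' replicate 2 peaks, 27 of 239 (11.3%, 7.88 to 15.9) overlapped a replicate 1 peak by at least 1 bp, beside 7.87% of all replicate 2 peaks in genes. Of the members' replicate 1 peaks, 25 of 462 (5.41%, 3.69 to 7.87) overlapped, beside 6.95%. Among replicate 2 peaks of height 1, 5 of 120 overlapped (4.17%, 1.79 to 9.38), and among those of height 3 or more, 19 of 73 did (26.0%, 17.3 to 37.1). For all peaks in genes the shares were 5.66% and 17.4%. In the shared list 4 of the members' 20 peaks had height 1 in replicate 2, beside 48.3% of all shared peaks in genes, and 11 of the 20 had a height of at least 3 in both replicates. Without Celf2, 3 of 82 replicate 2 peaks overlapped (3.66%, 1.25 to 10.2), so the members' replicate 2 share above 7.87% rests on that gene. In replicate 1 the members' share lay below that of all genes, with 6.95% inside its interval.

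**Figure D3:**
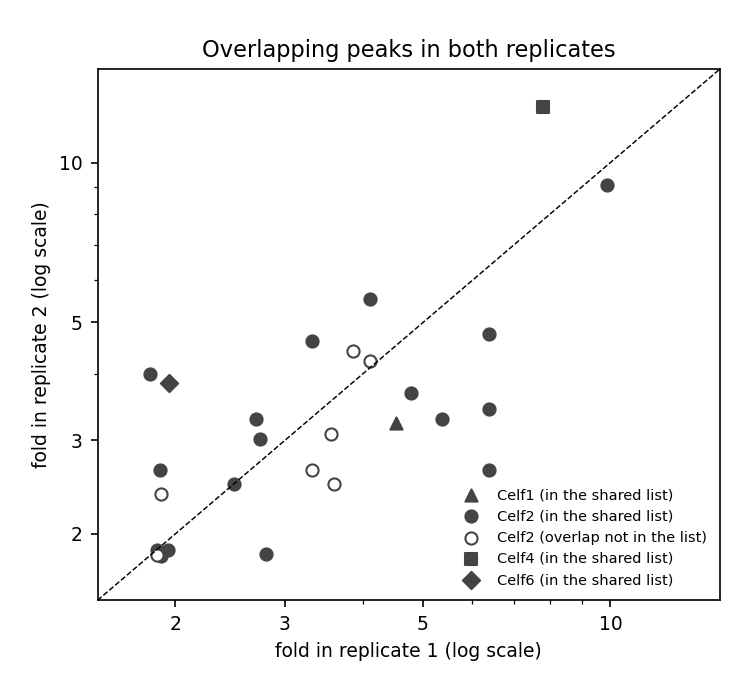
Fold in replicate 2 against fold in replicate 1 (log axes) for the 27 overlapping pairs, filled where the pair is in the authors' shared list and open where it is not. The dashed line marks equal folds, 20 of the 27 pairs lie within 1.5 times of it, and the Celf4 square (7.78 and 12.7) and the top Celf2 circle (9.86 and 9.09) stand apart from the rest.

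By position, 433 of 462 replicate 1 peaks (93.7%, 91.1 to 95.6) and 235 of 239 replicate 2 peaks (98.3%, 95.8 to 99.3) were intronic. Over all peaks in genes the shares were 90.2% and 91%. Without Celf2 they were 76.0% (66.6 to 83.5) and 96.3% (89.8 to 98.7), and the 11 Celf4 3' UTR peaks of replicate 1 were 11 of its 23 exonic peaks. Of the shared peaks 19 of 20 were intronic in the basic gene set, beside 88.5% of all shared peaks in genes. For intronic peaks the median distance to the nearest splice site of the longest transcript was 23596 nt in replicate 1 and 21372 nt in replicate 2, beside 3138 and 3726 nt over all genes. Within 500 nt of a splice site lay 22 of 433 (5.08%) and 10 of 235 (4.26%), beside 18.2% and 17.8%. Intron length differs in the same way, with a median of 223 kb at the member peaks and 17.4 and 21.1 kb over all genes. In Celf2 the median distance was 39496 and 34245 nt, and in 118 other genes of its length it was 31021 and 32756 nt. Within 500 nt lay 4.72% and 1.28% of the intronic peaks of Celf2, beside 2.03% and 2.11% in those genes. Without Celf2 the members' median was 5623 and 11034 nt. For the shared intronic peaks the median was 40873 nt and the smallest 3317 nt.

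Sequence could be read for 51 of 462 and 14 of 239 member peaks, and motifs were counted in their central 30 bases on the gene's strand alone. GAC was in 17 of 51 (33.3%, 22.0 to 47.0) and 7 of 14 (50%, 26.8 to 73.2), beside 31.1% and 31.0% of all readable peaks. UUUUU was in 8 of 51 (15.7%, 8.17 to 28.0), beside 6.38%, and in 0 of 14 in replicate 2, beside 5.92%. UGUUU was in 4 of 51 and 1 of 14, UUUGU and UGUGU each in 4 of 51 and 0 of 14, and UAUUUA in 2 of 51 and 1 of 14. Of all readable peaks in genes, UGUUU was in 6.36% and 5.66%, UUUGU in 6.19% and 5.52%, UGUGU in 5.54% and 5.38% and UAUUUA in 1.31% and 1.23%. Of the readable member peaks 24 of 51 and 10 of 14 were intronic, against 93.7% and 98.3% of all member peaks, so they do not stand for the set. Of all readable peaks in genes only 25.6% and 26.0% were intronic. The motif shares of members and of all genes thus come from unlike mixes of introns and exons, and were not matched for this. Some of them overlap each other. The sources used here do not say how a peak got its strand.

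The genes with the most similar counts were found by Euclidean distance of log10 length, peaks in each replicate and shared peaks plus 1, over the 2 libraries. For Celf2 they were Zbtb20 (distance 0.175, 457 and 198 peaks, 16 shared), Lpp (0.285, 459 and 230, 17 shared) and Cdk14 (0.327, 524 and 254, 18 shared). For Celf1 they were Bard1 (0.0195), Vps54 (0.0334) and Fbxo11 (0.0529), each with 1 shared peak. The values of Celf2 and Celf1 thus had close neighbours among genes outside these families.

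Other genes gave the setting. Celf3 (13.9 kb), the paralog outside the set, held 15 and 17 peaks (1.08 and 1.22 per kb), 26 of the 32 being single fragments, and 0 shared peaks. Of 30 other genes for RNA-binding proteins, Celf3 and Rbm45 among them, 30 held peaks in both replicates and 10 a shared peak. Over all genes with peaks in both replicates 38.7% held a shared peak. The medians of the 30 were 0.320 and 0.212 peaks per kb, beside 0.466 and 0.375 over all those genes. Rbm45, the gene of the introduced protein, had highest folds of 44.8 and 50.1, and introduced and endogenous RNA were not told apart. Of 9 neuronal markers, which include Elavl3 and Elavl4, 9 held peaks in both replicates. Outside those members 1 of 7, Map2, reached height 3 in both, beside 37.4% of all genes with peaks in both, and Tubb3, Syp and Snap25, which define neurons, had single-fragment peaks only. Of 16 astrocyte, oligodendrocyte, microglia and endothelium markers, 13 held peaks in both, and 1, Slc1a3, reached height 3 in both.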

How the data were processed

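The 9 genes and all lists were chosen with earlier results of these data known. The submitters' processing notes list deepTools 3.2.1, HOMER 4.11.1, bedtools 2.25.0, MACS2 2.1.1.20160309 and Novoalign 3.09.00, with mm10 as the build. The sources used here do not state the settings or whether input served as the control. Peaks were deposited per library, each with the authors' score, their fold (a ratio to background) and their −log10 p. The authors' list pairs peaks of both replicates. Repeated lines were removed from 654978 and 581790 deposited lines.

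Peaks were placed by midpoint on the GENCODE M21 basic gene set with bedtools 2.31.1 (Python 3.11.15, scipy 1.17.1). A peak counts in every gene it lies in. A peak is exonic where any basic exon covers its midpoint, and introns are numbered on the longest coding transcript. Heights were solved from fold and −log10 p as a Poisson tail, within 0.01, and the steps were tested on simulated data. Genes of like length lie within 1.5 times. No test was run, since peaks of 1 library are not replicates. Shares carry Wilson 95% intervals over peaks, for counting error only. The reads per library are unknown.

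The genes named are the 9 members, Celf3, and the 3 genes nearest to the member with most shared peaks and to that with most peaks per kb. Peaks named are each gene's best shared peak, every shared exonic peak and every peak of fold 10 or more. All other peaks named, and the stretches of sequence, were chosen after their values were seen. Alternatives covered the annotation, placement, overlap, p threshold, repeated lines, strand, Celf2 and each replicate. The count tables' 16 library columns match no sample's labels and were not used, so no knockout comparison was made. Sequence came from GENCODE M21 transcripts, 141767 of which were as long as their exons and 0 were not.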

Additional observations from a re-analysis of the deposited data

How the results depend on the processing

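Of 39 recomputed values 20 stayed near the reported one, and the 4 genes with a shared peak, the 20 shared peaks and 0.137 peaks per kb (mean of both replicates, median over genes) were the same under the comprehensive gene set and under placement by any overlap. The comprehensive set, with more exons, lowered the intronic share of all member peaks from 95.3% to 90.4%. A −log10 p of at least 4 left 2 genes and 7 shared peaks, with 18.8% of replicate 2 peaks overlapping, 0.0170 peaks per kb, 91.7% intronic and a median fold of 3.48 in place of 1.95. Overlap of 50% of both peaks gave 13 shared peaks and 5.44% overlapping. Keeping repeated lines gave 124 shared peaks and 0.450 peaks per kb. Without Celf2 there were 3 shared peaks, 3.66% overlapping and 85.4% intronic. Peaks of height 2 or more, an alternative chosen after seeing the data as was leaving Celf2 out of the shared count, gave 13 shared peaks in 3 genes and 0.0181 peaks per kb. Leaving out each replicate gave 0.133 to 0.136 peaks per kb, 93.7% to 98.3% intronic and a median fold of 1.92 to 1.95. Beyond the exons, peaks or lines that each setting adds or removes, the cause was not tested. No paired analysis was possible because no result comes from a test. Genes with few peaks, such as Elavl1 with 6 and 5, give too few to show a difference in overlap.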

Other observations

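The longest string common to the printed intron 2 and intron 8 stretches of Celf2, which lie about 474 kb apart, has 12 bases: TGACCTTTGACC. It was looked for after the sequences were seen. Leaving out the peaks on those stretches, it stood in the central 30 bases of 1 of 46472 readable replicate 1 peaks and of 0 of 38376 readable replicate 2 peaks, and it stood in 93 of 101652 transcripts of protein-coding genes, the Celf2 transcripts that hold the stretches among them. Of the 250 strings of 20 bases in the 269-base stretch, 3 were also found in transcripts of 2 other genes, and none of the 35 in the intron 8 stretch was.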
